A study of Mus musculus with 24 samples.

Results

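The comparison is between dorsal root ganglia (DRG) of Nfil3 knockout (KO) and wildtype (WT) mice, from the side without the nerve lesion. Samples were chosen by their titles, which name the genotype, the control condition (day 0) and the replicate. This gave 4 KO control and 4 WT control samples, 8 of the 24 samples in the series. The other 16 samples were DRG collected 2 or 5 days after a lesion of the sciatic nerve with coaptation of the nerve ends, in 4 KO and 4 WT samples per time point. They shared the model with the controls and are used below only for comparison.

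All mice were adult males labelled C57BL/6J. KO mice carried a germline deletion of Nfil3 in every tissue, and WT mice were littermates. The deletion was made by crossing mice with a loxP-flanked Nfil3 allele to a line with Cre in germ cells. Targeting used C57BL/6 stem cells, and the methods state that the Cre line and the KO colony were backcrossed to C57BL/6J. According to the methods, control tissue was L4 and L5 DRG from the non-injured side of lesioned animals, so the controls came from mice that had undergone the operation on the other side. The labels call the tissue DRG neurons, but the ganglia were dissected whole. All 13 neuron markers were above background in all 8 controls, as were all 8 markers of satellite glia, all 9 of myelinating Schwann cells and all 12 of macrophages. RNA was hybridised to 2-colour whole mouse genome arrays, with each colour channel used as a sample of its own. In both genotypes, control replicates 1 and 2 were labelled with Cy3 and replicates 3 and 4 with Cy5.

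NFIL3, also named E4BP4, is a basic leucine zipper transcription factor that mostly represses its targets. It binds the same DNA elements as the activators of the PAR bZIP family (Dbp, Tef and Hlf), competes at sites also bound by CREB and C/EBP factors, and is needed for the development of natural killer cells. It is induced by injury in DRG, and in cultured DRG neurons it is known as a repressor of axon growth. In vivo, the study instead reported slower recovery of KO mice and no change in regeneration-associated genes. Little is known of its role in the uninjured ganglion. The control samples address that question for ganglia of the non-injured side: which transcripts depend on Nfil3.

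Nfil3 itself was measured by a pair of probes on chromosome 13 of the mm9 build, at positions 53062869 to 53062928 (A_51_P111492) and 53062585 to 53062644 (A_52_P500027). Where the probes lie relative to the deleted region is not given in the sources used here. The first is shown because the check of the genotype rests on it; both probes gave the same picture:
Nfil3 probe A_51_P111492: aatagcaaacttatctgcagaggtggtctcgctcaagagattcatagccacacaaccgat

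Levels below are background-corrected, quantile-normalised intensities on the log2 scale, and a difference is always KO minus WT of these log2 levels. "Above background" means that the scanner software marked the spot as well above its background. With probe A_52_P500027, the 4 WT controls measured 8.52, 8.72, 8.58 and 9.09, all above background. KO control replicates 1, 2 and 3 measured 2.99, 3.82 and 4.39, none above background. The sample labelled KO control replicate 4 measured 7.66 and was above background. With probe A_51_P111492, WT levels were 7.99, 8.04, 7.48 and 7.98. The KO levels with this probe were 3.55, 4.10, 4.03 and, in replicate 4, 6.77.

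The groups did not overlap with either probe, but replicate 4 lay much nearer to the WT samples than to the other KO samples. On the linear scale it held 47.2% of the WT control mean with A_52_P500027 and 45.9% with A_51_P111492. The other 3 KO controls held between 1.85% and 4.90% with the first and between 4.95% and 7.26% with the second probe. This sample is labelled KO in its title and genotype. Its title and source name call it a control, while another label gives day 5. Its level of Nfil3 goes against the label for genotype, and results are therefore given with and without it.

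**Figure D1:**
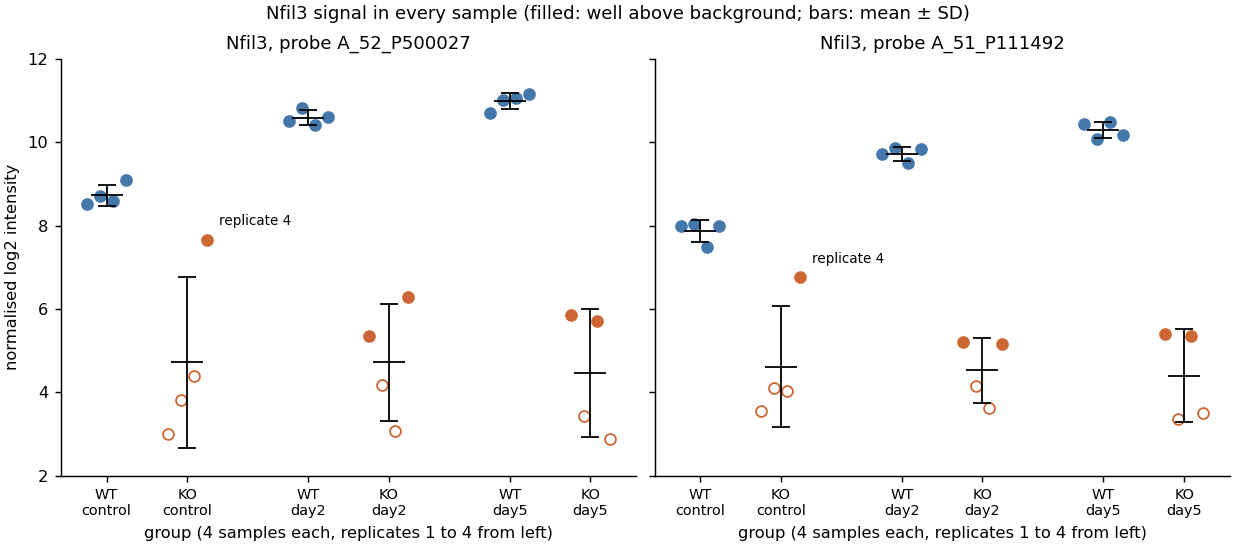
Normalised log2 intensity of both Nfil3 probes in each of the 24 samples, by genotype and time point, with the group mean ± SD (n = 4). Filled points were above background. All WT samples lie above all KO samples of the same time point, and the sample labelled KO control replicate 4, at 7.66 and 6.77, is the highest of the 12 KO samples.

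The difference in Nfil3 was -4.01 (SE 0.81, 95% interval -5.69 to -2.33, n = 4 per group) with A_52_P500027 and -3.26 (SE 0.56, 95% interval -4.43 to -2.09) with A_51_P111492. In limma's moderated test with Benjamini-Hochberg adjustment over 41174 probes, these gave an adjusted p of 0.9999 and 0.224, so Nfil3 did not pass the threshold with all samples included. An exact two-sided permutation test over the 8 samples gave p = 0.0286 for each probe, the smallest p that 4 against 4 samples allow. Without the sample labelled KO control replicate 4, the differences were -4.99 (adjusted p = 0.00907, limma) and -3.98 (adjusted p = 0.00117, limma). On the means of these log2 levels, the remaining 3 KO controls were 31.8-fold and 15.7-fold lower than WT. None of the 3 was above background, so these ratios depend on how background was corrected, and the difference over all samples was smaller with other corrections, which are given with the alternatives.

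In the lesioned ganglia, averaged over day 2 and day 5, the difference was -6.20 (limma adjusted p = 1.61e-05) with A_52_P500027 and -5.55 (limma adjusted p = 3.54e-07) with A_51_P111492. WT levels with A_52_P500027 were 8.73 ± 0.25 in controls, 10.60 ± 0.18 at day 2 and 10.99 ± 0.19 at day 5 (SD, n = 4 each). KO levels were 4.71 ± 2.05, 4.72 ± 1.40 and 4.47 ± 1.53 at the same times. With all samples, the difference in controls was smaller than that in lesioned DRG by 2.19 and 2.29 for the respective probes, with an unadjusted p of 0.0386 and 0.00329 in limma, and neither passed after adjustment (adjusted p = 0.9999 for both). Without the sample labelled KO control replicate 4, the KO control level with A_52_P500027 was 3.73 ± 0.71 (SD, n = 3 samples). The gap between controls and lesioned DRG was then 1.21 (SE 0.80, unadjusted p = 0.146 in limma) with this probe and 1.57 (SE 0.53, unadjusted p = 0.00779 in limma) with A_51_P111492.

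Each array carried 2 samples, and residual Nfil3 signal in KO samples moved with the genotype of the other sample on the array. Among the 6 KO samples hybridised beside a WT sample, A_52_P500027 ranged from 3.82 to 6.28 with a median of 5.53, and 4 were above background. Among the 6 beside another KO sample it ranged from 2.89 to 7.66 with a median of 3.24, and 1 was above background, namely control replicate 4. The other 5 ranged from 2.89 to 4.17 with none above background. The sample labelled KO control replicate 4 shared its array with a KO sample at day 5, whose own level was 3.42.

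No transcript, Nfil3 included, passed the adjusted threshold between KO and WT control DRG when all 8 samples were used. Of the 41174 probes, 0 (0%) passed an adjusted p of 0.05 in limma, and the smallest adjusted p was 0.224. At an unadjusted p of 0.05, 714 probes (1.73%) for 705 gene names passed, fewer than the nominal share of 5%. This count depended on the model. It was 838 gene names with dye as a covariate, 943 with the array as a random block and 967 with only the 8 controls. A share under 5% is therefore no measure of the absence of a genotype effect. Represented by the probe with the highest mean over all samples, 463 of 27398 gene names (1.69%) had an unadjusted p under 0.05, of which 241 (0.88%) were higher and 222 (0.81%) lower in KO. All 4 KO samples lay above all WT samples for 163 genes (0.595%), and below all WT samples for 161 genes (0.588%).

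Differences between genotypes were small for the genes that were clearly detected. For 14781 genes above background in all 8 controls, the median absolute difference was 0.07 and the 95th percentile 0.26. The 95% interval of a difference had a median half-width of 0.29. None of these genes differed by more than 1 on the log2 scale, a factor of 2 in level, and 44 (0.298%) had an unadjusted p under 0.05. Across these genes, pairs of controls with the same genotype correlated between 0.9807 and 0.9946, and pairs of different genotype between 0.9781 and 0.9963. The highest values of all pairs were 0.9963, between KO replicate 2 and WT replicate 3, and 0.9956, between KO replicate 3 and WT replicate 1. Both pairs were hybridised on the same array. No pair of controls with the same genotype shared an array, so genotype and array cannot be told apart in these ranges.

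The genes beside Nfil3 come next because a targeted allele keeps the flanking chromosome of its origin. Within 1 Mb of the probes, 10 other genes were measured, of which 4 were above background in all 8 controls. None had an unadjusted p under 0.05 by its brightest probe, against 1.69% of all genes, but Auh lay near that threshold and crossed it in several alternatives given below. Syk, a kinase of immune receptor signalling, differed by 0.44 (95% interval -0.09 to 0.97) and was above background in 3 WT and 4 KO samples. Ror2, a receptor for Wnt ligands, differed by -0.11, and Sptlc1, a subunit of the first enzyme of sphingolipid synthesis, by 0.14. Extending the window to 5 Mb gave 1 lower gene of 135, and extending it to 20 Mb gave 2 higher and 5 lower genes of 414.

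Auh, a neighbour of Nfil3, encodes a mitochondrial enzyme of leucine breakdown that also binds RNA. Its brightest probe (A_51_P372473, mm9 chromosome 13, 52930653 to 52930712) measured 12.95 ± 0.19 in WT and 13.15 ± 0.11 in KO controls (SD, n = 4). The difference of 0.20 (95% interval -0.01 to 0.40) did not pass (limma adjusted p = 0.9999). An exact two-sided permutation test over the 8 samples gave p = 0.114. At day 2 the WT level was 12.47 ± 0.07 and the KO level 13.12 ± 0.04, and at day 5 they were 12.69 ± 0.19 and 13.33 ± 0.06. There Auh was higher in KO by 0.65 (limma adjusted p = 0.0374) and 0.64 (limma adjusted p = 0.0330). The difference in controls was lower than the lesioned one by 0.45 (unadjusted p = 0.00164, limma adjusted p = 0.9999), so the absence of a call in controls is not shown to differ from the call after lesion. In limma, the unadjusted p of Auh in controls was 0.0486 without the sample labelled KO control replicate 4 and 0.0139 without WT control replicate 1. It was 0.0341 without background correction, 0.0327 with normexp background, 0.0380 with the array partner as a covariate and 0.0471 with an intensity trend, while no adjusted p passed. The other probes of Auh went the opposite way at every time. A_52_P107290 differed by -0.46 in controls (unadjusted p = 0.0491 in limma) and by -0.36 in lesioned DRG (unadjusted p = 0.0335), and A_52_P4095 by -0.23 and -0.37. The direction for Auh therefore holds for its brightest probe, not for the gene's other probes.

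**Figure D2:**
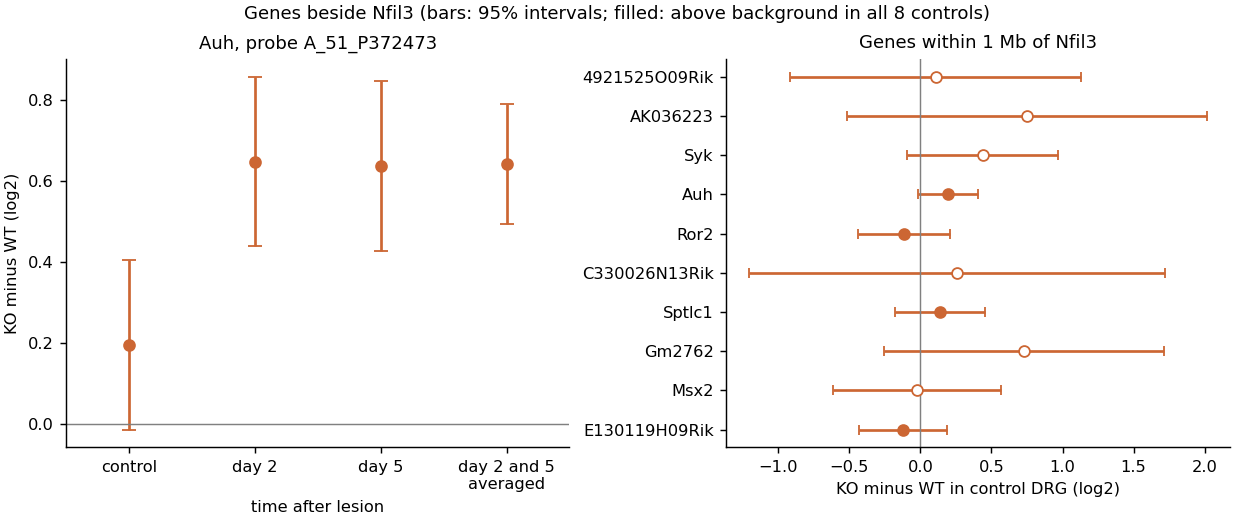
Left, KO minus WT of Auh (log2, probe A_51_P372473) in controls, at both times after lesion and averaged over them. Right, KO minus WT in controls for the 10 other genes within 1 Mb of Nfil3, in chromosome order. Bars are 95% intervals. The interval of Auh includes 0 in controls, from -0.01 to 0.40, and lies above 0 after lesion.

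As a description of the upper end of the ranking, the 10 genes with the smallest unadjusted p in each direction were taken among genes above background in all 4 samples of at least 1 genotype, Nfil3 set aside. All 20 had an adjusted p of 0.9999 in limma. Absolute differences ranged from 0.30 to 1.38. The groups did not overlap for 5 of the 10 higher and 4 of the 10 lower genes, against 0.595% and 0.588% of all genes, a share that the choice by p itself raises. Controls came from the non-injured side of lesioned mice, so controls and lesioned samples may share animals. The group means of the 16 lesioned samples did not enter these differences. The same lesioned samples did contribute to the estimate of spread and to the choice of the brightest probe. In them, 5 of the 10 higher and 5 of the 10 lower genes kept their sign. None of the 20 passed an adjusted p of 0.05 in limma there, where 3 of all probes (0.00729%) did, namely both Nfil3 probes and Auh. At an unadjusted p under 0.05, 2 of the higher and 0 of the lower genes passed in lesioned DRG, against 1106 of all genes (4.04%). Of these, 1700112E06Rik was higher in KO as in controls, and Col25a1 was lower in KO, opposite to controls.

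Among the higher genes were Col25a1, a collagen-like membrane protein, Odz4, a teneurin of synaptic contacts, Mctp2, a C2 domain protein of the endoplasmic reticulum, and Stk32c, a kinase. Col25a1 measured 5.21, 5.30, 5.30 and 5.33 in WT and 5.45, 5.69, 5.75 and 5.81 in KO, a difference of 0.39 (SE 0.11). Every KO sample was above every WT sample, but in lesioned DRG the difference was -0.18 and 2 of the gene's 4 probes went the other way in controls. Stk32c measured 6.10, 6.54, 6.42 and 6.05 in WT and 7.35, 6.59, 7.03 and 6.62 in KO, also without overlap. Its difference of 0.62 (SE 0.23) stood beside -0.12 in lesioned DRG.

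The lower genes included Fam167a, the Wnt ligand Wnt10a, the sodium and calcium exchanger Slc8a2 and the cysteine protease inhibitor Csta. Fam167a measured 5.52, 5.93, 5.82 and 5.70 in WT and 5.31, 5.40, 5.13 and 5.27 in KO, with a difference of -0.47 (SE 0.13) and no overlap. After lesion it differed by -0.12. Wnt10a differed by -0.56 (SE 0.21) in controls and by -0.21 after lesion, with 1 KO control above the lowest WT control. Gm16367 had the largest difference of the 20, at -1.38, which rested on WT replicate 4 at 8.55, while the other 7 controls lay between 4.29 and 4.98. Without that sample the difference was -0.44 (unadjusted p = 0.0532).

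The transcript 1700112E06Rik (mm9 chromosome 14, 23875226 to 23875285) had a difference of similar size at each time. In controls, WT samples measured 8.41, 8.70, 8.43 and 6.85 and KO samples 9.07, 9.03, 9.01 and 8.62, so the groups overlapped through KO replicate 4 and WT replicate 2. In lesioned DRG, the 8 WT samples ranged from 6.80 to 8.15 and the 8 KO samples from 8.34 to 9.01, so the groups did not overlap there. The difference was 0.84 (95% interval 0.20 to 1.47) in controls, 0.87 at day 2 and 0.83 at day 5. Averaged over the lesioned samples it was 0.85 (unadjusted p = 0.000755, limma adjusted p = 0.969), which did not pass. Without WT control replicate 4 the difference in controls was 0.42 (unadjusted p = 0.0738).

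**Figure D3:**
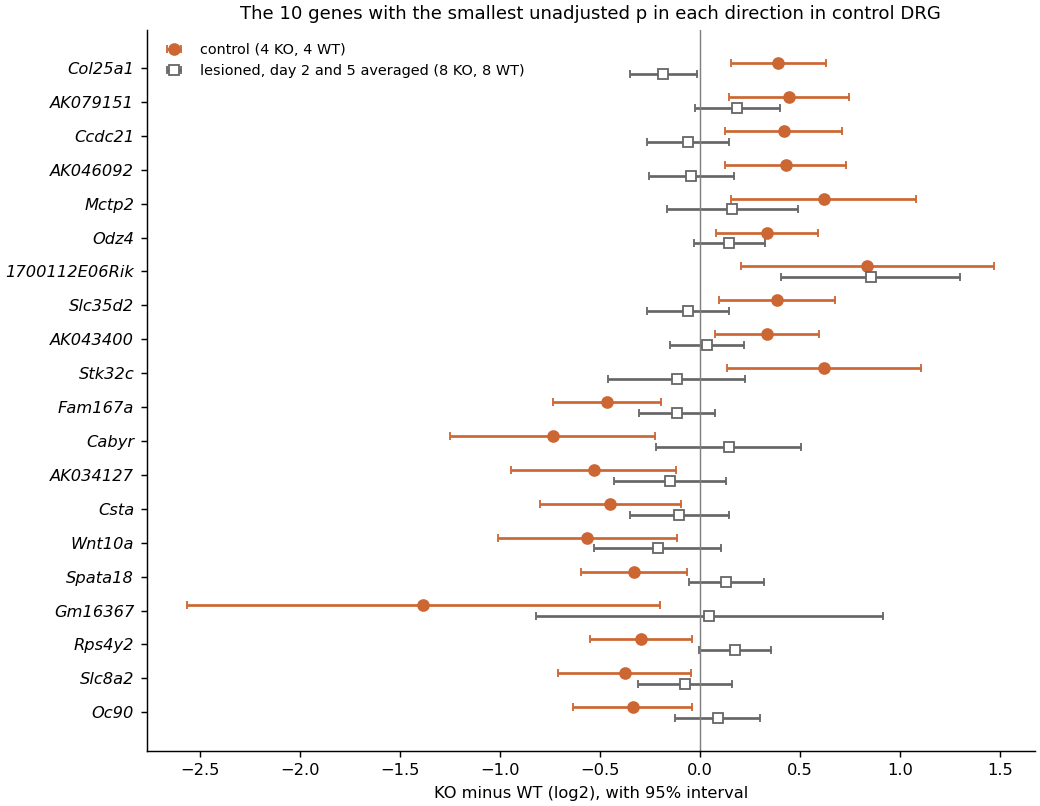
KO minus WT (log2) with 95% intervals for the 20 genes ranked highest in controls, in controls (orange circles, 4 against 4) and averaged over lesioned DRG (grey squares, 8 against 8). The lesioned differences lie on both sides of 0, with 10 of the 20 keeping their sign, and 1700112E06Rik is at 0.84 in controls and 0.85 after lesion.

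The PAR bZIP factors Dbp, Tef and Hlf bind the same element as NFIL3, and were listed together with genes of the circadian clock. All 22 listed genes were measured, 18 above background in all 8 controls. None had an unadjusted p under 0.05, against 1.69% of all genes and 0.298% of genes above background in all 8 controls. In a list of this length a count of 0 is near these shares and says little about the members. The same holds for the lists below. The median difference was 0.03 beside 0.01 over all genes. Dbp, an activator at these elements, measured 10.86 ± 0.36 in WT and 10.95 ± 0.50 in KO (SD, n = 4). Tef was at 10.53 ± 0.09 and 10.52 ± 0.21, and Hlf at 7.43 ± 0.22 and 7.48 ± 0.67. Per2, a negative arm of the clock, had the largest difference among the detected members at -0.31 (SE 0.22), and Nr1d1 differed by 0.18 (SE 0.32).

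Promoters were searched, on both strands, for TTACGTAA and TTATGTAA, elements that NFIL3 and the PAR bZIP factors are known to bind. Of 32851 promoters of the same length in RefSeq (GRCm38.p6), each reaching from 250 bases before to 50 after the start, 347 (1.06%) held at least 1 of them. Among 14183 array genes matched by symbol, the promoters of 158 held one. Their median difference was 0.02, beside 0.01 over all matched genes, and 1 of them (0.633%) had an unadjusted p under 0.05, beside 1.14% of all matched genes. The cyclic AMP response element TGACGTCA was found for 400 matched genes, of which 4 (1%) had an unadjusted p under 0.05.

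In the gene lists, Per3, Scn1a and Timeless held such an element. The 250 bases before the start of the clock gene Per3 are shown because they hold TTATGTAA at both 205 and 158 bases before the start, the capitals marking the elements (GRCm38.p6, chr4:151044666-151044915, minus strand, from RefSeq):
Per3: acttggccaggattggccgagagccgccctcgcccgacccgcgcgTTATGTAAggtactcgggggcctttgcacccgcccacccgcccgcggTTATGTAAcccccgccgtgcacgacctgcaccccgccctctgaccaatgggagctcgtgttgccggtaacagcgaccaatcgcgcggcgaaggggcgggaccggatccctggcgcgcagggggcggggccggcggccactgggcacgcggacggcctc

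Per3 measured 5.46, 5.65, 5.74 and 5.41 in WT controls and 5.60, 5.88, 5.41 and 5.86 in KO controls, and the groups overlapped. Its difference of 0.12 (95% interval -0.27 to 0.52) left room for a change in either direction at this precision. Scn1a differed by 0.17 (SE 0.20) and Timeless by -0.01 (SE 0.13).

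CREB and C/EBP factors, at whose sites NFIL3 competes, were all detected. None of the 14 measured members had an unadjusted p under 0.05, beside 0.298% of genes above background in all 8 controls. Differences ranged from -0.20 for Cebpd to 0.22 for Atf2. Creb1 measured 8.02 ± 0.20 in WT and 8.03 ± 0.23 in KO, and Cebpb 8.88 ± 0.10 and 8.83 ± 0.09 (SD, n = 4). The list of cyclic AMP response element targets had 18 measured genes. Nfil3 itself was the 1 member at an unadjusted p under 0.05, beside 1.69% of all genes. Immediate early genes overlapped between genotypes, with Fos at 6.00 ± 0.29 and 5.92 ± 0.21 and Egr1 at 8.52 ± 0.29 and 8.19 ± 0.32.

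Regeneration-associated genes, the class that NFIL3 is known to repress in cultured sensory neurons, had no member past even the unadjusted threshold in control ganglia. Of 34 listed, 33 were measured and 27 were above background in all 8 controls. The median unadjusted 95% interval of a detected member had a half-width of 0.32. The adjusted threshold asks for larger differences, so changes of this size could have been missed. The median difference was -0.02 over all and -0.00 over the detected members. Gap43, a growth cone protein, measured 9.69 ± 0.25 in WT and 9.60 ± 0.23 in KO (difference -0.09, SE 0.18), and Sox11, a transcription factor of growing neurons, 6.64 ± 0.11 and 6.64 ± 0.24. Stmn2, which regulates microtubules, was at 14.14 ± 0.11 and 14.10 ± 0.12. Arg1, an enzyme of arginine breakdown, was above background in 1 WT and 2 KO controls, with levels of 4.26 ± 0.37 and 4.14 ± 0.48. Timp1, an inhibitor of metalloproteases, was highest at 0.33 (SE 0.20), and the neuropeptide Nts was at -0.36 (SE 0.19).

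The injury genes Sprr1a, Atf3, Npy and Gal had wide spread within both genotypes, and their level moved with the other sample on the array. Sprr1a measured 5.88, 9.36, 6.17 and 11.76 in WT controls 1 to 4 and 8.22, 5.71, 5.53 and 11.51 in KO controls 1 to 4. The 4 lowest values were those of controls hybridised beside another control. WT replicate 2 and KO replicate 1 were beside day 2 samples, and both replicates 4 were beside day 5 samples. Atf3 was likewise lowest in the 4 controls beside another control, intermediate beside day 2 and highest beside day 5 samples, with 7.76, 9.35, 7.32 and 10.06 in WT and 9.11, 7.57, 7.53 and 9.74 in KO. In lesioned samples themselves, Sprr1a ranged from 12.68 to 15.93, above every control.

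Controls beside a lesioned sample exceeded those beside a control by 4.53 (WT) and 4.25 (KO) for Sprr1a, by 2.16 and 1.87 for Atf3, and by 4.42 and 2.86 for Npy. Over the 14781 detected genes the same shift had a median of -0.02 in WT and 0.00 in KO. Each genotype had 1 control beside a day 2 and 1 beside a day 5 sample, so the time point of the partner was balanced. Each of these lesioned partners had the genotype of the control beside it, so partner genotype was not balanced. The slides were not balanced either, as given below. Within the 4 controls beside another control, which are 2 KO and 2 WT samples on 2 arrays of opposite dye order, Sprr1a differed by -0.41 and Atf3 by 0.01. Again none of the 33 regeneration genes had an unadjusted p under 0.05 there, where 205 genes were higher and 236 lower of 27398.

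**Figure D4:**
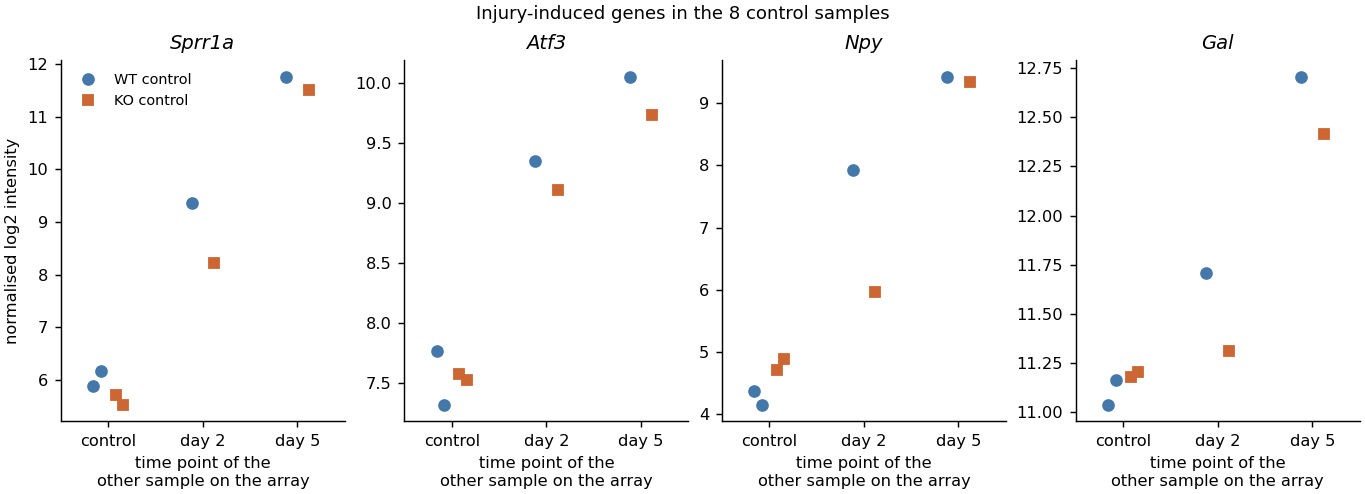
Normalised log2 intensity of 4 injury-induced genes in the 8 controls, by the time point of the sample hybridised in the other colour of the same array (WT circles, KO squares). Controls beside day 5 samples are the highest of their genotype for all 4 genes, reaching 11.76 and 11.51 for Sprr1a.

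Ion channels and neuropeptides define what a sensory neuron detects and signals. Of 32 measured ion channel genes, 29 were above background in all 8 controls. None had an unadjusted p under 0.05, beside 0.298% of all genes detected in this way, and the median difference was 0.01. Scn10a and Scn9a, sodium channels of nociceptors, differed by -0.01 (SE 0.21) and 0.14 (SE 0.25). P2rx3, a purine receptor, differed by 0.32 (SE 0.27) and the calcium channel Cacna1b by 0.17 (SE 0.11). Among 20 measured neuropeptides and their receptors none had an unadjusted p under 0.05, beside 1.69% of all genes. Calca, which encodes CGRP, measured 16.89 ± 0.07 in WT and 16.99 ± 0.18 in KO, and Tac1, which encodes substance P, 12.18 ± 0.08 and 12.20 ± 0.12.

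Lymphoid genes were examined because NFIL3 is needed for natural killer cells. Of 30 measured, 9 were above background in all 8 controls, and 1 had an unadjusted p under 0.05, against 1.69% of all genes. This was the granzyme Gzmb (-0.74), which was above background in 0 WT and 1 KO sample. The natural killer cell genes Ncr1 and Eomes were above background in no control of either genotype, so these whole ganglia could not show a difference in them. Others were detected in all 8 controls: Klrb1c at 14.62 ± 0.13 in WT and 14.64 ± 0.35 in KO, and Tbx21 at 5.32 ± 0.39 and 5.22 ± 0.28 (SD, n = 4). Klrk1 was higher in every KO than in every WT control, by 0.48 (SE 0.33), opposite to Gzmb. It was above background in 0 WT and 2 KO samples. Nkg7, a granule protein of cytotoxic cells, was detected throughout at 6.47 ± 0.19 in WT and 6.40 ± 0.51 in KO. In bulk tissue, fewer cells of a type and less RNA per cell cannot be told apart.

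Interferon response genes had 23 measured members, 19 with a difference above 0 and 4 below, and 1 with an unadjusted p under 0.05, Mx1 at -0.57. Over all genes, 51.7% had a difference above 0 and 1.69% an unadjusted p under 0.05. Mx1 was above background in 1 WT and 2 KO samples. Most of the spread was between samples of the same genotype: Ifit1 measured 10.95, 7.53, 7.97 and 9.31 in WT and 10.61, 8.77, 8.08 and 8.36 in KO. WT replicate 1 and KO replicate 1 were the highest of their groups, and the difference was 0.01 (SE 0.59). In the 2 arrays that carried both genotypes the median of the list was -0.18, beside 0.08 with all controls.

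Of 38 basal transcription genes, 37 were detected throughout and none had an unadjusted p under 0.05, beside 0.298% of genes detected throughout. Their differences were narrow, from -0.09 to 0.23 among the detected members. The study named genes for a combined effect of time and genotype, a choice made on these same samples. The 20 listed here leave out Nfil3 itself, Olfr64 and genes with a provisional name. Of these 20, 11 were above background in no control. None had an unadjusted p under 0.05, beside 1.69% of all genes. Rfx7, a transcription factor, differed by 0.35 (SE 0.18) and Pax6 by -0.06 (SE 0.12).

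**Figure D5:**
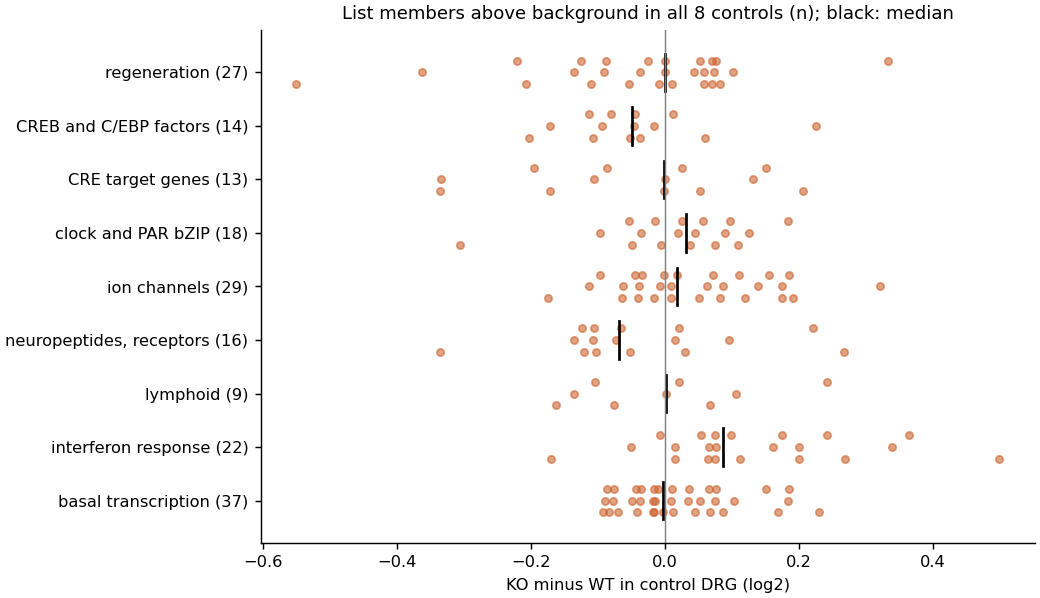
KO minus WT in control DRG (log2) for members of 9 gene lists that were above background in all 8 controls, each point a gene and each black bar the median of its list. The medians lie between -0.07 and 0.09, and the widest points, such as Sprr1a at -0.55, belong to genes with a large spread between replicates.

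Among 6 genes known to vary between inbred mouse lines, none had an unadjusted p under 0.05 in controls, beside 1.69% of all genes. Wdfy1, an adaptor of Toll-like receptor signalling, measured 8.99, 10.58, 11.08 and 11.05 in WT controls and 10.34, 9.27, 10.28 and 9.29 in KO controls. The groups overlapped, with a difference of -0.63 (SE 0.44). KO controls 2 and 4 lay 1 log2 unit below KO controls 1 and 3. KO day 5 replicates 1 to 4 measured 10.40, 9.31, 10.46 and 9.32, the same pattern by replicate number, and the 4 KO day 2 samples lay between 8.95 and 9.31. In WT, replicate 1 was the lowest both in controls and at day 5, where it measured 9.14 and the highest sample 11.25. At day 2 the WT samples lay between 10.47 and 10.76, above every KO sample of that day. Over the lesioned samples Wdfy1 had an unadjusted p of 0.00447 (limma adjusted p = 0.969), and did not pass.

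The counts above changed little without the sample labelled KO control replicate 4. In the lists of clock and PAR bZIP, CREB and C/EBP, regeneration, ion channel, neuropeptide and basal transcription genes, the number of members at an unadjusted p under 0.05 was again 0, where 205 genes were higher and 251 lower of 27398. The interferon list had 0 in place of 1, and the only transcript past an adjusted p of 0.05 in limma was Nfil3.

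Cell type markers were compared for the whole list of each type. No list had a member past the adjusted threshold in limma. Signs leaned in some lists, beside 51.7% of all genes above 0. Differences were below 0 for 8 of 9 myelinating Schwann cell markers (median -0.16), all 6 of muscle, all 5 of fat and all 6 of injured neurons. They were above 0 for 8 of 13 neuron, 5 of 8 satellite glia and 3 of 4 erythrocyte markers (median 0.43 for the last). In the 2 arrays with both genotypes the Schwann cell median was 0.01. These leans were not tested. Summed over detected markers, neuron levels ranged from 19.22 to 19.54 in WT and from 19.25 to 19.59 in KO, and satellite glia from 17.19 to 17.32 and from 17.26 to 17.38. Myelinating Schwann cell sums ranged from 16.36 to 16.79 and from 16.19 to 16.83, and macrophage sums from 13.17 to 13.90 and from 13.35 to 13.81. The widest ranges were in tissue beside the ganglion. Skeletal muscle sums were 9.32 in WT replicate 1 and between 6.12 and 6.59 in the other 7 controls, and fat cell sums ranged from 6.24 to 9.63. Fast muscle troponins Tnni2 and Tnnc2 measured 11.23 and 10.26 in WT replicate 1. Without that sample, 1358 gene names had an unadjusted p under 0.05, in place of 705, and 1 passed the adjusted threshold in limma, Pbk at 1.94 (adjusted p = 0.0117). The part of muscle or fat tissue in any difference was not tested. The markers at an unadjusted p under 0.05 were Anxa10, lower in KO with a 95% interval of -1.47 to -0.54, and Olig1, with a mean of 1.78 in WT and 2.99 in KO, neither above background in any control.

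Slide was the other source of spread among controls. Of the 40 detected genes with the largest SD within genotypes, 22 were higher by more than 1 in all 8 samples of slide 3 than in any of the other 16 samples, with gaps from 1.15 to 2.47. Slide 3 carried WT replicates 3 and 4 and KO replicate 2, and the 22 genes had differences between -0.84 and -0.50, none with an unadjusted p under 0.05. Over all 14709 detected genes without missing values, 53 were separated in this way on slide 3, and 0 on slides 1 and 2. Serpinb6d, for example, measured 9.43, 9.48 and 9.34 in these 3 controls and between 6.50 and 6.84 in the other 5.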

How the data were processed

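Whole DRG RNA from 24 samples was amplified, labelled with Cy3 or Cy5 and hybridised in pairs to 12 Agilent 4x44K arrays on 3 slides, with 4 independent replicates per condition. The deposited files hold, per the file headers, scanner intensity of the foreground and local background for 45018 spots, made by the authors with Agilent Feature Extraction 10.7.3.1, together with 0 or 1 marks for outlier, saturated and well-above-background spots and a processed intensity. As in the authors' methods, mean foreground was corrected for median background (Edwards) and quantile-normalised over the 24 channels on 43379 non-control spots. Log2 values were computed here from the deposited intensity, outlier spots left out (417 probe values missing in all), and spots of a probe averaged, giving 41174 probes for 27398 gene names. No probe was filtered for low signal. Between 55.2% and 72.8% of spots were above background in the controls, none saturated, and the number of arrays limits the precision. The lowest share was that of WT control replicate 4, and the next lowest was 61.7%, in the sample labelled KO control replicate 4. Whether this bears on the genes where WT control replicate 4 stood apart was not tested.

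All 24 samples entered 1 linear model of group means in limma 3.58.1 (R 4.3.3, 18 residual degrees of freedom), with the contrast of KO and WT controls, empirical Bayes moderation and Benjamini-Hochberg adjustment over all probes, threshold 0.05. Where a gene had several probes, its brightest probe over the 24 samples stood for it. The named genes were the 10 with the smallest p in each direction among genes above background in all 4 samples of a genotype, Nfil3 left out. Single values were tested by exact permutation over the 8 controls. The method was checked on simulated data. Members, lists and tests were chosen with earlier results of these data known, and p-values measure the spread between these samples. Promoters and symbols were taken from RefSeq, and probe positions from the array annotation on mm9.

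Replicate numbers were checked for pairing. Deviations of same-numbered KO and WT controls from their group means correlated at 0.44, -0.44, -0.31 and 0.20. Controls on the same array correlated at 0.57 (WT 3 with KO 2) and 0.41 (WT 1 with KO 3). Same-numbered controls also shared a dye, so this check cannot separate replicate number from array, slide and dye. The numbers were not used as pairs. Controls came from the non-injured side of lesioned mice, and the labels do not tie samples to animals. Same-numbered controls and lesioned samples of a genotype correlated between -0.385 and 0.249 for day 2. For day 5 the range was -0.409 to 0.627. In KO, every same-numbered pair with day 5 was positive, at 0.339, 0.27, 0.326 and 0.0484. The members of each pair had the same dye, and those of replicates 1, 3 and 4 also shared a slide, so these effects cannot be told apart. Differently numbered KO pairs with day 5 lay between -0.362 and 0.251. In WT, the same-numbered values with day 5 were 0.627, -0.409, -0.273 and 0.469. Whether same-numbered samples came from the same animals was not tested. Tests of controls against lesioned DRG treated them as independent samples, and shared animals were not modelled. Alternatives covered background, normalisation, outliers, filtering, averaging of probes, dye, slide, array and replicate terms, a subset of samples, and each sample left out in turn.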

Additional observations from a re-analysis of the deposited data

Results flagged for a closer look

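Among the genes named above, 7 of 71 groups of 4 controls held a sample set apart from the other 3 by Dixon's test. At the 95% level used, chance gives about 1 in 20 for groups not chosen on their values. Many of these genes were chosen by p from the same controls, so that rate is no measure of an excess here. WT control replicate 4 stood apart in 3 of the 7 groups. It was low for 1700112E06Rik (6.85, the others between 8.41 and 8.70) and for Slc35d2 (4.88, the others between 5.29 and 5.35), and high for Gm16367 (8.55, the others between 4.49 and 4.98). The sample labelled KO control replicate 4 was low for 1700112E06Rik (8.62, the others between 9.01 and 9.07) and high for Gzmb (3.90, the others between 3.26 and 3.36). KO control replicate 2 was high for Gm16367 (4.46, the others between 4.29 and 4.30), and WT control replicate 1 was low for Oc90 (6.10, the others between 6.62 and 6.72). No probe differed between controls and lesioned DRG in its KO minus WT difference at an adjusted p of 0.05 in limma.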

How the results depend on the processing

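The count of genes past an adjusted p of 0.05 was 0 and became 1, namely Nfil3, without background correction, with normexp background, and without both controls on an array with a day 5 sample. Nfil3 then differed by -2.28 and -1.73 (A_52_P500027 and A_51_P111492, adjusted p = 0.00683 and 0.00247, limma), by -1.97 and -1.43 (adjusted p = 0.00361 and 0.00141), and, for A_51_P111492 in the last setting, which was chosen after seeing the data, by -3.94 (adjusted p = 0.00811). Leaving out single controls gave 0 or 1 gene, 582 to 1358 genes at an unadjusted p under 0.05, and Nfil3 differences of -4.99 to -3.44 and -3.98 to -2.90. The unadjusted count fell from 705 to 363 without background correction and to 305 with only probes above background in at least 4 samples, where fewer probes were tested. With probes averaged by gene, Auh turned to -0.17, Col25a1 to -0.054, Csta to 0.042 and E130119H09Rik to 0.15. Ror2 turned to 0.0070 in the controls of the 2 arrays that carried both genotypes, and Olig1, never above background, to -0.15 with processed signals. The number of named genes passing in lesioned DRG was 0 in every setting. With the replicate number as a block, 862 genes had an unadjusted p under 0.05 and 0 passed after adjustment, and the block changed no call at the adjusted threshold, while the unadjusted p of Auh went from 0.0660 to 0.0437. Of 699 further values for single genes, 694 kept their sign and their side of the adjusted threshold. Their adjusted p lay far above it in nearly every setting, so the side was almost fixed beforehand. Sizes moved more, with AK034127 between -2.23 and -0.09 and Cabyr between -0.78 and -0.12. Without WT control replicate 4, Odz4, 1700112E06Rik, Slc35d2, AK043400, Gm16367, Slc8a2 and Oc90 no longer had an unadjusted p under 0.05 in limma. The single Nfil3 probes have no value under averaging by gene. Control replicates number 4 per genotype, and the unadjusted 95% interval of a typical detected gene had a half-width of about 0.29. The adjusted threshold over all probes asks for larger differences than that. The cause of these changes with the setting was not tested.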
